A study of Rattus norvegicus with 24 samples.

Results

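The livers described here came from 12 male Wistar rats (an outbred albino strain) that ate a diet with 20% protein, 6 of them for 4 weeks and 6 for 1 week. They are 12 of 24 rats in a study of low protein feeding and fatty liver, in which 20% protein was the normal diet. The other 12 rats ate 5% protein, 6 for 4 weeks and 6 for 1 week. The titles alone decided which animals entered the comparison, and no measured value was used. Liver RNA of each rat was labelled with biotin from total RNA and put on 1 Affymetrix array, and the expression of 17245 genes was compared. All 24 rats share sex label, strain and tissue, and no gene was altered and no drug was given to these groups per the labels. The labels give no age, so the time on the diet and the age of the animal cannot be told apart. The sample descriptions code the diets with other figures than the titles, and the design text names 4 weeks only. The percentages and times used here are those of the titles.

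A young male rat's liver passes from juvenile to adult expression while the animal grows. Growth hormone comes in pulses in the adult male rat and more evenly in the female, and through its receptor and the factor STAT5B it sets apart a group of male-biased and female-biased liver genes, among them cytochrome P450 enzymes of steroid metabolism and urinary proteins. Genes of the fetal liver, such as H19 and alpha-fetoprotein, are silenced after birth, and hepatocytes divide less as growth slows.

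Over all genes measured, 176 rose and 259 fell at 4 weeks relative to 1 week, which is 1.02% and 1.5% of the genes tested (limma, Benjamini-Hochberg adjusted p below 0.05 over all genes, two-sided). At least 2-fold changes were met by 49 of the genes that rose and 47 of those that fell. The 6 and 6 animals did not overlap at all in 337 genes (1.95%), of which 89 were called higher and 114 lower. The median difference over all genes was 0.01 on the log2 scale and the median standard error 0.104. The split between rises and falls depended on scaling. It was 40.5% rises with the intensities as deposited, 51.1% after quantile normalization and 66.2% with array medians centred, with 341 genes higher and 174 lower in the last. The call held for 91 of the genes that rose and 129 of those that fell in all of 12 fits that each left out 1 animal on 20% protein. Leaving out 4-week animal 67, 72 or 73 lowered the counts most, to between 113 and 119 rises and between 151 and 169 falls.

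Levels are log2 of the deposited intensity throughout, differences are 4 weeks minus 1 week on that scale, and errors are standard errors of the fitted difference unless SD is written. The median gene had a mean level of 6.31, and the lowest 10% lay below 3.40. Array medians of the 12 livers lay between 43.2 and 45.5 intensity units, and within each time every pair of arrays had a correlation of at least 0.984 across genes. No measure of RNA quality was used. The animal numbers form 4 runs, and each run holds a single time: 22 to 32 and 59 to 73 at 4 weeks, 49 to 54 and 74 to 79 at 1 week. On 20% protein the lower numbers (22 to 54) hold 2 livers of 4 weeks and 3 of 1 week, and the higher numbers (59 to 79) hold 4 and 3. The labels do not say what a run stands for. The 1-week livers differed between their runs in 742 genes higher and 1126 lower in the later run. Calls were therefore also tested in a fit over the 12 arrays with run as a random block, called run-blocked below. It used 1 correlation within run for all genes (0.18) and had 10 residual degrees of freedom. Each time holds only 2 runs, and livers of a run still count largely as replicates in that fit, so its p-values may be too small. For the time difference over all 12 livers, a call printed in these Results with its p but no run-blocked value was kept there. The difference between diets, and the fits that leave out an animal, were not tested run-blocked. The run-blocked fit called 41 rises and 43 falls, of which 39 and 41 were among the calls above. By themselves the lower numbers gave 19 rises and 27 falls and the higher numbers 279 and 541, and 29 genes differed between these comparisons, 6 of them among the calls.

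The library of animal 53, labelled male and fed for 1 week, stood apart in sex-biased genes. A1bg, a plasma glycoprotein gene that is female-specific in rat liver, read 12.18 in animal 53, against 5.33 to 5.97 in the other 1-week livers on 20% protein and at most 6.54 in the other 23 rats of the study. Cux2, a transcription factor that is female-biased in rodent liver, read 8.40 in animal 53 and 5.36 to 5.89 in the other 1-week livers. Cyp2c11, the male-specific P450 that hydroxylates testosterone, read 7.04 in animal 53, against 11.92 to 12.31 in those livers. Its male-specific relative Cyp2c13 read 6.61 in animal 53 and 11.97 to 12.88 in the others. Low values of these P450s also occurred on 5% protein, where the lowest of all other rats read 5.04 for Cyp2c11 and 6.75 for Cyp2c13, whereas no other rat approached its A1bg level. Within its group animal 53 thus carried high levels of female-biased genes and low levels of male-biased ones. It lay more than 2 log2 units beyond all others of its group in 16 genes, 6 above and 10 below, while no other of the 12 livers did so in more than 4. The 6 above were A1bg, A1bgl1, Ly6al, Akr1b7, Cux2 and Prom1, and those below included Ust5r, Inmt, Hao2, Slc22a8 and Rdh16. The X-linked genes Ddx3x (10.17) and Kdm5c (8.73) were also highest in animal 53 of all 24 rats, against at most 9.93 and 8.49 in the other 23. A further X-linked gene, Eif2s3, read 11.16 in animal 53 and up to 11.19 in the other 23. The Y-linked genes Ddx3y, Uty and Kdm5d and the X-linked genes Xist and Kdm6a were looked for but were not among the genes tested. Whether the sex label of animal 53 is right was not tested. Without it 171 genes rose and 276 fell, of which 143 and 216 were also called with it. Results on many sex-biased genes are given with and without it. Those on Mup5, Rup2, Tox, Cyp17a1, Cyp2a1 and Cyp3a9 are given with it, and their calls were kept without it. The difference between diets is given with it unless stated.

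**Figure D1:**
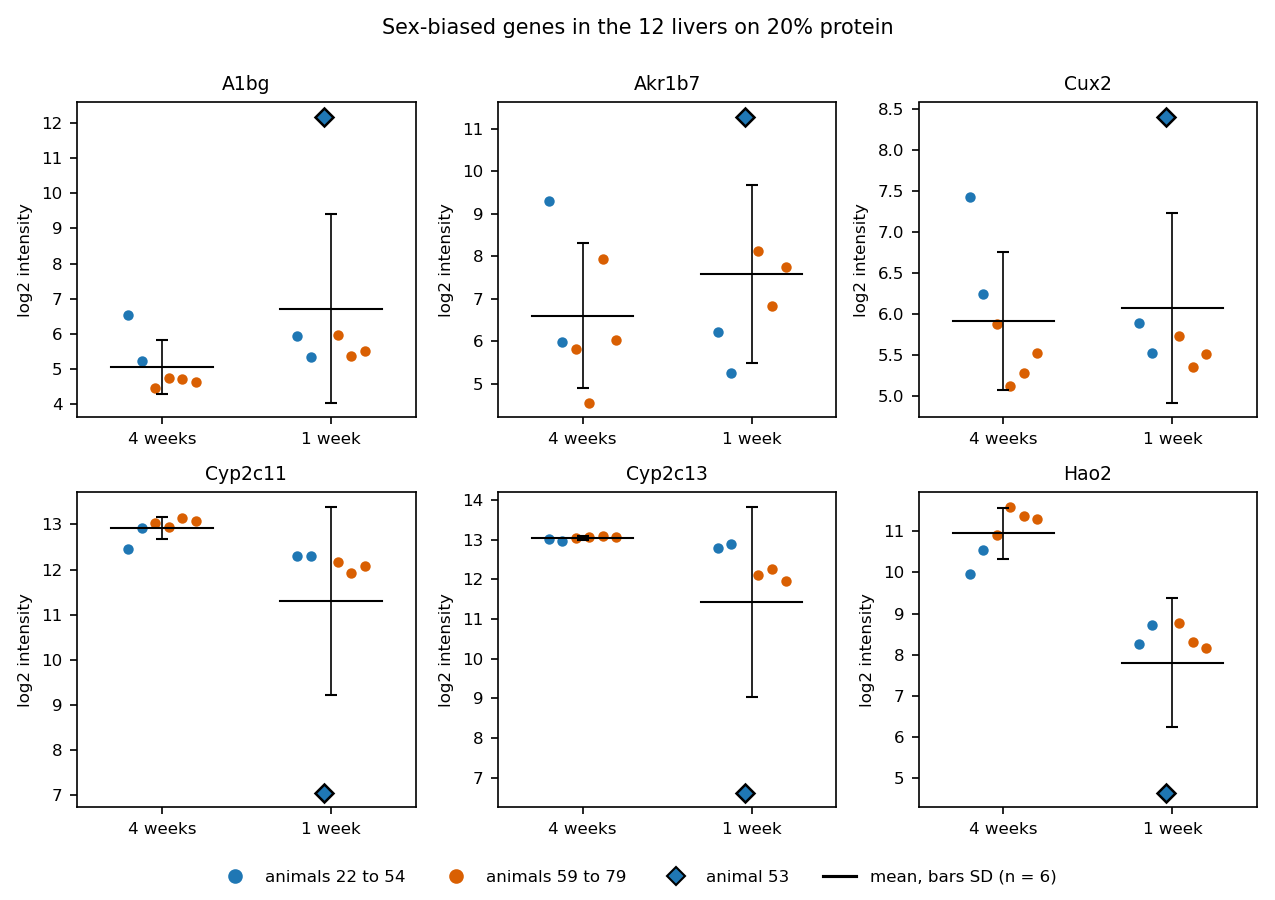
Log2 intensity of 6 sex-biased genes in each of the 12 livers on 20% protein, at 4 weeks (left) and 1 week (right), with the mean and SD (n = 6 each). The diamond marks animal 53, which reads 12.18 for A1bg and 7.04 for Cyp2c11 while the other 1-week livers lie at 5.33 to 5.97 and at 11.92 to 12.31.

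Of 16 measured male-biased genes of rat liver 5 rose and none fell, 15 had a positive difference, 7 did not overlap between the times, and the median difference was 0.98, against 0.01 over all genes. Without animal 53 the count was the same 5, and the median was 0.47. For this and later list or family counts, 1.02% of all genes rose, 1.5% fell and 1.95% did not overlap. List members were chosen with earlier results of these data known. The level of the male-biased list, the mean of its members, was 10.84 to 11.35 in the 4-week livers (median 11.28) and 7.81 to 10.36 in the 1-week livers (median 9.76), where 7.81 was animal 53. Of 10 measured female-biased genes 4 fell and 1 rose, with a median of -0.78 (-0.55 without animal 53, with the same counts). Both groups of genes lie downstream of growth hormone in the rat, and the promoters of 4 of their members are shown. They are the 2 largest rises and the 2 largest falls among called members of these lists that did not overlap and have a promoter in the RefSeq table used. Each runs from 250 bases before the gene's start to 50 after it, 5′ to 3′ on the gene's strand in build GRCr8, with capitals on matches to TTCNNNGAA, a core that STAT proteins bind, and to ATTGAT, a core that HNF6 (the Onecut1 protein) binds, on either strand.
Mup5, chr5:79999646-79999945, minus strand: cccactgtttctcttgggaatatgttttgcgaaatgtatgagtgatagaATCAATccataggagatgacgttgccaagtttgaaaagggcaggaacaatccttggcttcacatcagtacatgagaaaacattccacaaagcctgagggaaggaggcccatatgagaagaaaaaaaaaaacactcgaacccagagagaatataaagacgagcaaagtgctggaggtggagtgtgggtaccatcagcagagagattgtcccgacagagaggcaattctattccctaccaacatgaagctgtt
Rup2, chr8:43551407-43551706, minus strand: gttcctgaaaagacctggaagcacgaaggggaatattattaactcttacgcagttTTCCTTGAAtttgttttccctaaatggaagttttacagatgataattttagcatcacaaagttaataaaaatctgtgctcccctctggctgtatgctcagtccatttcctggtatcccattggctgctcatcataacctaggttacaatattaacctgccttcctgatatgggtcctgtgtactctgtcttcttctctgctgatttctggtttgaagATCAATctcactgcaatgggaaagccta
Cyp2c12, chr1:248676985-248677284, minus strand: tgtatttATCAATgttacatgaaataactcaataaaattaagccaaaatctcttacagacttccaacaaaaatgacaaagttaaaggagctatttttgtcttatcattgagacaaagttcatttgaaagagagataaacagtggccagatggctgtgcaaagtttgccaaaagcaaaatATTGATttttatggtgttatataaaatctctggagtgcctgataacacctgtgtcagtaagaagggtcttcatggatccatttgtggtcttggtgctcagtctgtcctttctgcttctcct
Cyp2a1, chr1:91359028-91359327, plus strand: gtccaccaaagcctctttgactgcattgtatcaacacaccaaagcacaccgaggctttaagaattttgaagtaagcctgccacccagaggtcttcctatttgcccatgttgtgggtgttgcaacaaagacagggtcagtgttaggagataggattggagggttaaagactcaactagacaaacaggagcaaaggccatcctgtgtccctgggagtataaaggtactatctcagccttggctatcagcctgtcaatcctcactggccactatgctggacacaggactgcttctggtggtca

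The Cyp2c12 promoter holds 2 matches to ATTGAT, which begin 243 and 71 bases before the start, and HNF6 is known to stimulate this promoter in rat liver. Mup5 has 1 such match 201 bases before its start. Rup2 has a match to TTCNNNGAA 195 bases before the start and a match to ATTGAT 22 bases after it, and Cyp2a1 has neither. Of all 27457 promoters in RefSeq, 8.69% hold TTCNNNGAA and 7.91% hold ATTGAT. Among promoters of genes that rose (136 with an entry) the shares were 9.56% and 7.35%, and among those of genes that fell (213) they were 8.92% and 3.29%, set against 7.81% and 6.13% of the 14117 promoters of genes tested. Onecut1, the gene of HNF6, read 9.34 to 11.16 in the 4-week livers and 9.30 to 10.53 in the 1-week livers, and its difference of 0.51 ± 0.37 did not pass (adjusted p = 0.524).

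The largest rise of all was that of Stac3 (probe set 10895915), known as an adaptor protein of muscle contraction. It read 10.16 to 12.28 (median 11.88) in the 4-week livers and 4.39 to 6.32 (median 4.89) in the 1-week livers. The times lay nearly 4 log2 units apart at their closest animals, and the fitted difference was 6.54 ± 0.29 (adjusted p = 7.16e-14, run-blocked 3.5e-06). Mup5, a major urinary protein that carries small volatile molecules, read 7.82 to 9.06 (median 8.01) at 4 weeks and 3.01 to 3.63 (median 3.21) at 1 week, at 1 week near the level of the lowest 10% of genes. It rose by 4.95 ± 0.17 (adjusted p = 5.91e-16), with no overlap. Rup2, another urinary protein gene, read 12.69 to 13.20 (median 12.999) in the 4-week livers, all at one high level. The 1-week livers were spread from 5.47 to 11.85 (median 8.19), and the rise of 4.58 ± 0.92 (adjusted p = 0.00628) was 2.75 among the lower and 6.30 among the higher animal numbers, with no call among the lower.

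Hsd3b5, a 3-ketosteroid reductase that is male-specific in mouse liver, read 11.50 to 12.24 (median 12.09) in the 4-week livers and 3.99 to 9.11 (median 6.87) in the 1-week livers, where the lowest was animal 53. The groups did not overlap, and the rise was 5.02 ± 0.56 (adjusted p = 3.68e-06) and 4.44 without animal 53. Dhrs7l1, a short-chain dehydrogenase gene, read 10.91 to 11.85 (median 11.65) at 4 weeks and 3.15 to 7.80 (median 6.03) at 1 week. Its rise of 5.80 ± 0.53 (adjusted p = 1.24e-07) was 5.27 without animal 53, and the groups stayed apart either way. Hao2, a peroxisomal oxidase of hydroxy acids, read 9.96 to 11.59 (median 11.10) at 4 weeks and 4.64 to 8.76 (median 8.28) at 1 week. Its rise was 3.13 ± 0.63 (adjusted p = 0.00577, run-blocked 0.1) with animal 53 and 2.50 (adjusted p = 0.00693) without it. Cyp2a2, a male-specific P450, rose by 2.05 ± 0.51 (adjusted p = 0.03) and by 1.47 without animal 53 (adjusted p = 0.035). Its call was lost run-blocked (adjusted p = 0.27) and without animal 67, 72 or 73, although its 4-week livers (11.66 to 12.31) all lay above its 1-week livers (7.08 to 10.79).

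Cyp2c11 and Cyp2c13 were already high at 1 week in 5 of 6 livers. Cyp2c11 read 12.46 to 13.14 in the 4-week livers and, animal 53 left out, 11.92 to 12.31 in the 1-week livers, so the groups did not overlap. Its difference was 1.62 ± 0.74 (adjusted p = 0.269) with animal 53 and 0.77 ± 0.52 (adjusted p = 0.502) without it. The SD of its 1-week livers without animal 53 was 0.16. The fit shares 1 estimate of spread over both diets, and rats on 5% protein read as low as 5.04 for Cyp2c11 and 6.75 for Cyp2c13. These standard errors thus also hold the spread on 5% protein. Cyp2c13 differed by 1.61 ± 0.75 (adjusted p = 0.284) with animal 53 and by 0.64 (adjusted p = 0.513) without it, and 5 of its 6 1-week livers lay between 11.97 and 12.88, below all 4-week livers (12.97 to 13.09). Car3, the muscle and male liver carbonic anhydrase, differed by 0.41 ± 0.53 (adjusted p = 0.741), and Hsd11b1, which activates glucocorticoids, by 0.13 ± 0.30 (adjusted p = 0.866). Without animal 53 their differences were 0.13 and -0.28, neither past the threshold. Such levels near 13 lie close to the top of the scale, at 13.92, where the array may no longer separate amounts.

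**Figure D2:**
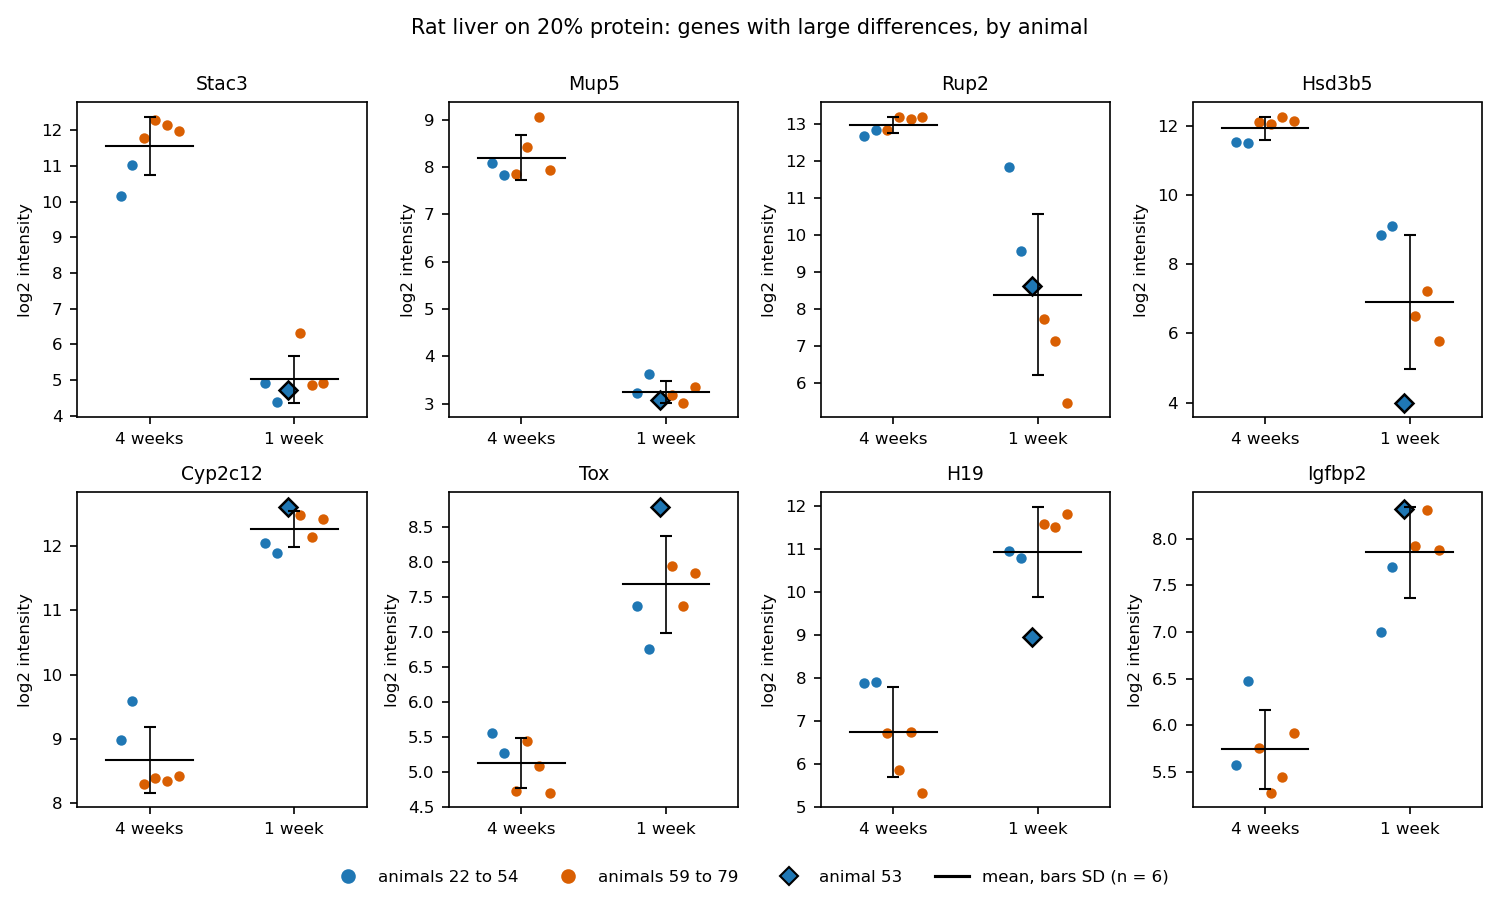
Log2 intensity of 8 genes in each of the 12 livers on 20% protein, 4 weeks left and 1 week right, with the mean and SD (n = 6 each); colours separate animals 22 to 54 from 59 to 79 and the diamond marks animal 53. Stac3, Mup5, Rup2 and Hsd3b5 are higher and Cyp2c12, Tox, H19 and Igfbp2 lower in every 4-week liver than in every 1-week liver.

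Cyp2c12, the female-specific steroid hydroxylase of adult rat liver, had the second largest fall among genes whose groups did not overlap. It read 8.30 to 9.59 (median 8.41) in the 4-week livers and 11.89 to 12.61 (median 12.28) in the 1-week livers. Every 1-week liver was high and every 4-week liver low, with a difference of -3.59 ± 0.25 (adjusted p = 1.26e-09, run-blocked 3.5e-06), a level 12.1-fold lower at 4 weeks. Leaving out animal 53, whose 12.61 was the highest, gave -3.52. Tox, a chromatin protein of T cell development that is female-biased in rodent liver, read 4.70 to 5.55 (median 5.18) at 4 weeks and 6.75 to 8.78 (median 7.60) at 1 week, and fell by 2.55 (SE 0.25, adjusted p = 4.54e-07). Cyp17a1, which makes androgen precursors, fell by 1.84 (SE 0.35, adjusted p = 0.0042, run-blocked 0.12), with 8.59 to 10.92 in the 4-week livers and 11.33 to 12.06 in the 1-week livers. Cyp2a1, a testosterone hydroxylase, fell by 0.54 (SE 0.12, adjusted p = 0.0122, run-blocked 0.12). The member that rose was Cyp3a9, a P450 that is female-biased in adult rats. It read 5.35 to 7.56 (median 7.08) at 4 weeks and 3.99 to 4.44 (median 4.28) at 1 week, did not overlap, and rose by 2.42 ± 0.29 (adjusted p = 1.27e-05). Cyp2c7 (1.13 ± 0.58, adjusted p = 0.338) and Sult2a1 (0.89 ± 0.50, adjusted p = 0.384), both female-biased in rats, did not pass. A1bg and Cux2, whose 1-week ranges are set by animal 53, did not pass either (adjusted p = 0.263 and 0.901).

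Along the growth hormone and IGF1 axis 1 of 27 measured genes rose and 1 fell, with a median of 0.05. Ghr, the growth hormone receptor, read 11.59 to 12.03 (median 11.81) in the 4-week livers and 11.07 to 11.46 (median 11.29) in the 1-week livers. The groups did not overlap, and the rise of 0.52 ± 0.10 (adjusted p = 0.00326) missed the threshold run-blocked (adjusted p = 0.079). Igfbp2, a binding protein of IGFs that is high in young animals, read 5.27 to 6.48 (median 5.66) at 4 weeks and 7.0 to 8.32 (median 7.90) at 1 week. All 4-week livers were lower, and it fell by 2.11 (SE 0.30, adjusted p = 0.000151, run-blocked 0.0033). Igf1 itself read 12.73 to 12.89 (median 12.78) in the 4-week livers and 12.40 to 12.72 (median 12.61) in the 1-week livers. These did not overlap, yet the difference of 0.19 ± 0.08 did not pass (adjusted p = 0.206). Igfals, the subunit that keeps IGF1 in the circulation, also did not overlap, with 11.02 to 11.44 (median 11.24) at 4 weeks and 9.65 to 10.99 (median 10.29) at 1 week. Its difference was 0.90 ± 0.31 (adjusted p = 0.129), and 1.04 (adjusted p = 0.0887) without animal 53. The feedback genes Socs2 (0.73 ± 0.45) and Cish (-0.97 ± 0.58) ranged over more than 2 log2 units within each time and did not pass (adjusted p = 0.438 and 0.422).

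A pair of hormone and growth factor receptors outside that list rose with no overlap, and were picked after their values were seen. Esr1, the oestrogen receptor, read 8.84 to 9.48 (median 9.21) in the 4-week livers and 7.28 to 7.67 (median 7.57) in the 1-week livers. It rose by 1.62 ± 0.18 (adjusted p = 4.05e-06, run-blocked 6.1e-05). Egfr, the receptor of epidermal growth factor, read 10.98 to 11.55 (median 11.38) at 4 weeks and 9.51 to 10.45 (median 10.32) at 1 week, and rose by 1.11 ± 0.17 (adjusted p = 0.000319, run-blocked 0.021).

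Of the fetal liver genes H19 was the member that fell, 1 of 26 measured, and the list median was -0.06. H19, an imprinted noncoding RNA of growing tissue, had the largest fall among called genes. It read 5.32 to 7.90 (median 6.73) in the 4-week livers and 8.94 to 11.81 (median 11.23) in the 1-week livers, where 8.94 was animal 53. No animals overlapped, and the difference was -4.19 ± 0.67 (adjusted p = 0.000665, run-blocked 0.0041) and -4.59 without animal 53. Afp, alpha-fetoprotein, was uneven at 1 week. It read 6.30 to 6.78 (median 6.53) in the 4-week livers and 6.71 to 10.89 (median 7.39) in the 1-week livers, of which 2 livers, animals 77 and 79, lay above 10. Its difference of -1.76 ± 0.54 did not pass (adjusted p = 0.0868) but did so without animal 53 (-2.07, adjusted p = 0.0378). Igf2, the imprinted growth factor beside H19, was low at both times (4.22 to 4.86 at 4 weeks and 4.30 to 4.75 at 1 week) and differed by 0.06 ± 0.10. Dlk1 (0.12 ± 0.10) and Gpc3 (0.13 ± 0.27), 2 more fetal growth genes, did not pass either (adjusted p = 0.579 and 0.856), and Alb, serum albumin, differed by 0.03 ± 0.06. Zhx2 and Zbtb20 are known in mice as repressors that silence Afp in liver after birth, Zhx2 of H19 also, and both were looked up after the values were seen. Zbtb20 read 10.57 to 10.86 (median 10.66) at 4 weeks and 9.82 to 10.29 (median 10.19) at 1 week, and rose by 0.55 ± 0.09 (adjusted p = 0.00109, run-blocked 0.039). Zhx2 read 7.97 to 8.29 (median 8.13) at 4 weeks and 7.04 to 7.89 (median 7.45) at 1 week, and rose by 0.64 ± 0.14 (adjusted p = 0.0102, run-blocked 0.095). Neither overlapped between the times.

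The fixed lists of DNA replication and mitosis held no called gene. Of 45 genes of DNA replication 43 had a negative difference (median -0.27), and of 65 genes of mitosis 63 did (median -0.28). None was called (without animal 53, the replication gene Ccne2 was), 16 and 12 had an unadjusted p below 0.05, and no member was without overlap. Over all 17245 genes tested, 2819 had an unadjusted p below 0.05 and 1.95% were without overlap. Outside these lists the cell cycle phosphatase Cdc25a fell by 0.65 (adjusted p = 0.00503, run-blocked 0.18), a gene looked up after its values were seen. Among the higher animal numbers the medians were -0.60 and -0.57 with 26 and 20 members called lower, while among the lower numbers they were 0.15 and 0.04 with none called. Mki67, a marker of dividing cells, read 6.34 to 7.77 (median 6.94) in the 4-week livers and 6.45 to 8.96 (median 7.93) in the 1-week livers, and the 2 ranges overlapped widely (-0.69 ± 0.33, adjusted p = 0.299). Pcna, the sliding clamp of DNA replication, differed by -0.37 ± 0.11 (adjusted p = 0.0779), by 0.07 among the lower and -0.72 among the higher numbers. Of 19 measured erythroid markers, 16 had a negative difference, the median was -0.48 (0.11 among the lower and -0.86 among the higher numbers), and 1 was called lower, the haemoglobin chaperone Ahsp. Ahsp read 5.06 to 7.72 (median 5.68) at 4 weeks and 6.87 to 8.37 (median 7.17) at 1 week, differed by -1.47 ± 0.39 (adjusted p = 0.0388, run-blocked 0.31), and had a difference of 0.06 among the lower numbers. Alas2, which starts haem synthesis in red cell precursors, differed by -1.02 ± 0.51 (adjusted p = 0.322). In whole liver, fewer cells of a type and less RNA per cell cannot be told apart, and whether these lists moved for a common reason was not tested.

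**Figure D3:**
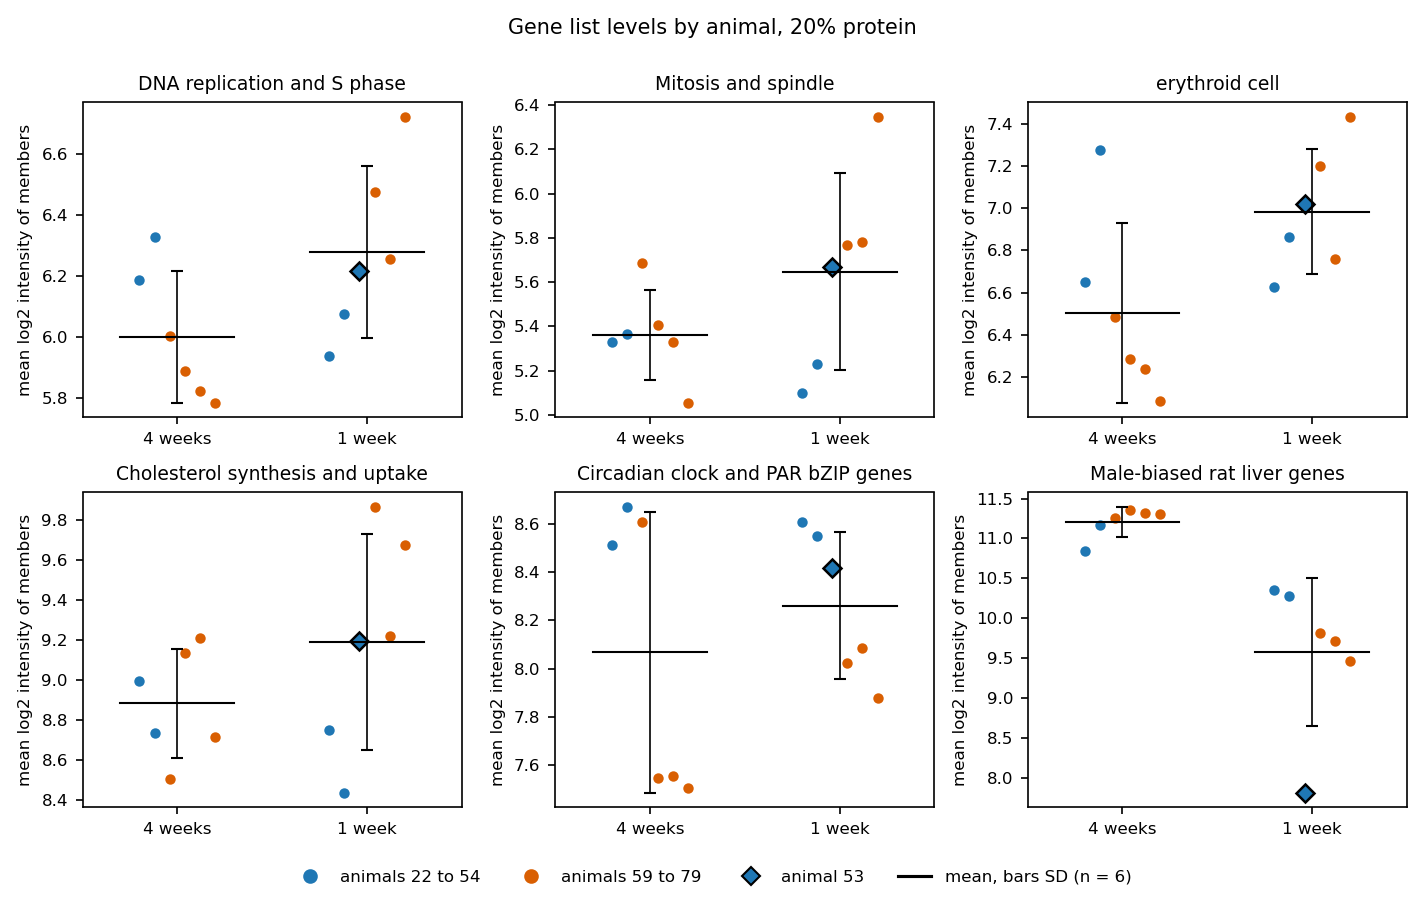
Mean log2 intensity of the measured members of 6 gene lists in each of the 12 livers on 20% protein, 4 weeks left and 1 week right, with the mean and SD (n = 6 each). The male-biased list lies at 10.84 to 11.35 in the 4-week livers, above all 1-week livers, whereas the replication, mitosis, erythroid, cholesterol and clock lists overlap between the times. Relative to animals 22 to 54, the mean of animals 59 to 79 is lower at both times for the clock list. It is lower at 4 weeks and higher at 1 week for replication and erythroid. Mitosis and cholesterol are higher at 1 week (5.96 against 5.33, 9.58 against 8.79) and alike at 4 weeks (5.37 and 5.35, 8.89 and 8.86).

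Among drug and steroid metabolising genes the changes ran in both directions. Of 32 measured P450 genes of xenobiotic metabolism 3 rose and 4 fell, with a median of 0.01. Cyp2b1, which phenobarbital induces in rat liver, read 4.79 to 7.28 (median 6.20) in the 4-week livers and 7.33 to 9.85 (median 8.85) in the 1-week livers. The groups met without overlapping, and it fell by 2.72 (SE 0.38, adjusted p = 0.000121, run-blocked 0.072). Its close relative Cyp2b2, whose probes may share transcripts with it, fell by 2.02 (SE 0.43, adjusted p = 0.00872, run-blocked 0.32) with some overlap. Cyp3a73 rose by 2.17 ± 0.42 (adjusted p = 0.00465), with 9.95 to 11.22 at 4 weeks and 7.82 to 9.88 at 1 week. Cyp2d4 rose by 0.55 ± 0.13 (adjusted p = 0.0163, run-blocked 0.31, lost without animal 67 or 72) and Cyp2j4 fell by 0.74 (SE 0.19, adjusted p = 0.0346, run-blocked 0.33, lost in 8 of the 12 fits without 1 animal). Cyp1a2 (-0.05 ± 0.18) and Cyp2e1 (-0.21 ± 0.10), the main caffeine and ethanol metabolising P450s in that order, did not pass (adjusted p = 0.922 and 0.314).

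Of the 34 genes in the conjugation list 3 fell and none rose (median -0.04), and of 28 genes of bile acid synthesis and transport 3 fell and none rose (median 0.02). Without animal 53 the bile acid list had 4 falls and 1 rise, that of the uptake transporter Slco1b2. Gsta3, a glutathione transferase, read 4.41 to 5.25 (median 4.91) in the 4-week livers and 7.46 to 8.77 (median 8.23) in the 1-week livers. More than 2 log2 units separated the nearest animals, and it fell by 3.25 (SE 0.19, adjusted p = 4.17e-11, run-blocked 1.8e-05). Ugt2b1, a glucuronosyltransferase, fell by 1.26 (SE 0.16, adjusted p = 4.39e-05) with no overlap, and Gstm5 by 1.01 (SE 0.23, adjusted p = 0.0165, run-blocked 0.077, lost without animal 79). Abcc3, which pumps conjugates into the blood, read 6.69 to 6.99 (median 6.79) at 4 weeks and 7.54 to 8.62 (median 8.25) at 1 week, and fell by 1.39 (SE 0.20, adjusted p = 0.000209, run-blocked 0.0037). The exporters Abcb1a (-0.98 ± 0.21, adjusted p = 0.00985) and Abcg2 (-0.69 ± 0.15, adjusted p = 0.0128) also fell without overlap, though not run-blocked (adjusted p = 0.051 and 0.2). A count over all 45 ABC transporters, made after their values were seen, found 5 falls and no rise, the others being Abcc5 (-1.34 ± 0.21, adjusted p = 0.000349) and Abcd2. Over all genes tested 1.5% fell. Cbr1, a carbonyl reductase (-1.11 ± 0.13, adjusted p = 7.62e-06, run-blocked 0.0075), and Fmo5, a flavin monooxygenase (-1.38 ± 0.27, adjusted p = 0.00514, run-blocked 0.18), fell with no overlap too, and these were picked after their values were seen. Cyp7a1, the rate-limiting enzyme of bile acid synthesis, varied from 7.02 to 12.32 in the 4-week livers and from 6.01 to 12.67 in the 1-week livers, so no difference could be seen against this spread (-0.01 ± 0.98, adjusted p = 0.996).

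The aldo-keto reductases of the Akr1c family, which reduce steroids and prostaglandins, rose in 5 of 9 measured members (median 0.88) and fell in none, a family counted after its values were seen. Akr1c1 read 8.69 to 10.23 (median 9.43) in the 4-week livers and 4.85 to 6.44 (median 6.13) in the 1-week livers. It rose by 3.52 ± 0.27 (adjusted p = 6.38e-09, run-blocked 0.00017) with no overlap. Akr1c12 rose by 2.76 ± 0.44 (adjusted p = 0.000665), and by 2.29 without animal 53, whose 5.38 was the lowest. Its call was lost run-blocked (adjusted p = 0.072). Akr1c2 rose by 2.59 ± 0.23 (adjusted p = 8.55e-08) and AKR1C3l1 by 2.45 ± 0.21 (adjusted p = 4.21e-08), both without overlap, and Akr1c13 by 0.87 ± 0.20 (adjusted p = 0.0163, run-blocked 0.28) with overlap. These genes are alike in sequence, so that probes of a member may also read its relatives, and their rises are not separate counts of the same event.

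Sult1c2al1, a sulfotransferase-like gene, read 5.11 to 6.96 (median 6.07) in the 4-week livers and 2.34 to 3.04 (median 2.77) in the 1-week livers, the last at the bottom of the scale. It rose by 3.29 ± 0.20 (adjusted p = 4.81e-11). Nox4, an oxidase that makes hydrogen peroxide, read 7.57 to 9.12 (median 8.68) at 4 weeks and 4.44 to 6.47 (median 5.06) at 1 week, and rose by 3.20 ± 0.33 (adjusted p = 7.22e-07, run-blocked 0.0033). Cdh17, the liver and intestine cadherin, read 4.99 to 8.84 (median 8.08) at 4 weeks and 3.97 to 4.79 (median 4.37) at 1 week. The lowest 4-week liver stood just above the highest 1-week liver, and the rise was 3.16 ± 0.45 (adjusted p = 0.000134, run-blocked 0.072). Mettl7b, a methyltransferase of lipid droplets and the endoplasmic reticulum, rose by 2.58 ± 0.21 (adjusted p = 1.1e-08), Elapor1, a transmembrane regulator of autophagy, by 2.60 ± 0.28 (adjusted p = 2.07e-06), and Lrtm2, a leucine-rich repeat membrane protein, by 2.37 ± 0.37 (adjusted p = 0.000492). Ncam2, an adhesion molecule picked after its values were seen, rose by 1.77 ± 0.17 (adjusted p = 4.08e-07). None of these 4 overlapped between the times.

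Of 43 peroxisomal genes 3 fell and 1 rose (median -0.04), of 38 genes of mitochondrial fatty acid oxidation and ketogenesis 3 fell and none rose (median -0.19, 29 negative; 5 fell without animal 53), and of 31 genes of lipogenesis and triglyceride synthesis 1 fell (median -0.18). Abcd2, a peroxisomal importer of very long chain fatty acids, read 3.53 to 5.15 (median 4.22) in the 4-week livers and 6.16 to 8.42 (median 7.80) in the 1-week livers. Its 2 groups stood a full log2 unit apart, and it fell by 3.32 (SE 0.40, adjusted p = 1.04e-05, run-blocked 0.0018). The peroxisomal gene that rose was Hao2, a male-biased gene described above. Crat, carnitine acetyltransferase (-1.38 ± 0.34, adjusted p = 0.0273, run-blocked 0.079), and Acot5, a peroxisomal acyl-CoA thioesterase (-1.16 ± 0.29, adjusted p = 0.0324, run-blocked 0.034), fell in this fit, but their calls were lost in 5 and 7 of the 12 fits without 1 animal. In mitochondria Hadhb, part of the trifunctional protein of beta oxidation, read 9.77 to 10.50 (median 9.99) at 4 weeks and 10.46 to 10.84 (median 10.60) at 1 week. It fell by 0.55 (SE 0.10, adjusted p = 0.00289, run-blocked 0.16), and the groups overlapped by 1 liver of each time. Acot2, a mitochondrial thioesterase, fell by 0.97 (SE 0.20, adjusted p = 0.00724, run-blocked 0.26), and Ppargc1a, a coactivator of mitochondrial genes, by 1.05 (SE 0.28, adjusted p = 0.0415, run-blocked 0.23, lost in 7 of the 12 fits without 1 animal). Ppara, the receptor that induces many of these genes, read 9.52 to 11.01 in the 4-week livers and 10.46 to 10.93 in the 1-week livers and did not pass (-0.55 ± 0.21, adjusted p = 0.188), nor did Cpt1a, the gate of mitochondrial fatty acid entry (-0.72 ± 0.38, adjusted p = 0.352).

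Several genes of glycerol and triglyceride handling were called lower, and were put together here after their values were seen. The list of lipogenesis and triglyceride synthesis itself had 1 call among 31 genes, that of Dgat1. Aqp7, a channel for glycerol, read 4.83 to 6.72 (median 5.26) in the 4-week livers and 7.25 to 8.68 (median 8.06) in the 1-week livers, did not overlap, and fell by 2.60 (SE 0.34, adjusted p = 4.3e-05). Gpat3, which adds the initial acyl chain to glycerol phosphate, read 4.29 to 6.03 (median 4.71) at 4 weeks and 6.13 to 7.51 (median 6.59) at 1 week, and fell by 1.75 (SE 0.25, adjusted p = 0.000155, run-blocked 0.037). Gpd2, the mitochondrial glycerol phosphate dehydrogenase that thyroid hormone induces in rat liver, read 7.73 to 8.13 (median 7.84) at 4 weeks and 8.40 to 9.5 (median 8.97) at 1 week, and fell by 1.13 (SE 0.17, adjusted p = 0.00024, run-blocked 0.023). Each of the 3 was lower in every 4-week liver than in every 1-week liver. Mttp, which loads lipid onto apolipoprotein B, fell by 0.45 (SE 0.07, adjusted p = 0.000683), with 10.58 to 10.81 at 4 weeks and 11.01 to 11.28 at 1 week, the 1 call among 24 apolipoprotein and lipoprotein genes. Dgat1, which completes triglyceride, fell by 0.36 (SE 0.09, adjusted p = 0.0294, run-blocked 0.3, lost in 6 of the 12 fits without 1 animal), and without animal 53 the malic enzyme gene Me1 was called lower beside it. The lipogenic genes Scd (0.31 ± 0.35) and Thrsp (-0.03 ± 0.47) did not pass (adjusted p = 0.704 and 0.986), and Scd was lowest in animal 53 (11.1). None of 20 cholesterol genes was called. Their median was -0.22 (17 negative), 0.06 among the lower and -0.59 among the higher animal numbers. Sqle, an oxygenase of cholesterol synthesis, differed by -0.89 ± 0.48 (adjusted p = 0.37).

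Other genes among the 15 largest falls without overlap were Alox15, a lipoxygenase (-2.69 ± 0.57, adjusted p = 0.00933), Slc39a5, a zinc importer (-2.51 ± 0.21, adjusted p = 4.21e-08), Gfra3, a co-receptor of the growth factor artemin (-1.90 ± 0.29, adjusted p = 0.000324), Qsox1, which forms disulfide bonds (-1.82 ± 0.23, adjusted p = 2.17e-05), and Qpct, a glutaminyl cyclase (-1.71 ± 0.30, adjusted p = 0.00134). All 5 were lower in every 4-week liver. Slc39a5 read 5.79 to 6.74 (median 6.23) in the 4-week livers and 8.16 to 9.31 (median 8.96) in the 1-week livers. Among the lower animal numbers alone Slc39a5 was called and the other 4 were not. Run-blocked, the call of Qpct was lost (adjusted p = 0.099) and those of the other 4 were kept (adjusted p from 0.00022 to 0.032).

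Of 62 measured genes of the urea cycle and amino acid breakdown 3 rose and none fell, with 47 positive differences and a median of 0.16 (0.09 without animal 53). Amdhd1, of histidine breakdown, read 10.55 to 11.12 (median 10.73) in the 4-week livers and 9.62 to 10.71 (median 9.89) in the 1-week livers, and rose by 0.79 ± 0.21 (adjusted p = 0.0456). Dmgdh, of choline breakdown, rose by 0.58 ± 0.15 (adjusted p = 0.0374), and Pccb, a subunit of propionyl-CoA carboxylase, by 0.34 ± 0.08 (adjusted p = 0.0284). All 3 overlapped between the times, and their calls were lost in 11, 8 and 6 of the 12 fits without 1 animal. Without animal 53 the 3 calls were Amdhd1, Pccb and Hal, another enzyme of histidine breakdown. Run-blocked, none of Amdhd1, Dmgdh and Pccb was called (adjusted p = 0.1, 0.28 and 0.34). Cps1, which feeds ammonia into the urea cycle, differed by 0.07 ± 0.10 (adjusted p = 0.773). Of 33 targets of the amino acid sensor ATF4, 1 fell, the amino acid exchanger Slc7a5 (-1.06 ± 0.27, adjusted p = 0.0298, lost in 6 of those fits), with a list median of -0.12. Its call was lost run-blocked (adjusted p = 0.33) and without animal 53, where Phgdh and Aldh18a1, enzymes of serine and proline synthesis, were called lower instead. Trib3 (-0.31 ± 0.41), Asns (-1.0 ± 0.48) and the hormone gene Fgf21 (-1.0 ± 0.54) did not pass (adjusted p = 0.759, 0.304 and 0.366).

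Of 39 genes of glycolysis, gluconeogenesis and glycogen 6 fell and none rose (median -0.06), and 3 fell without animal 53 (median -0.16). The 6 were Aldoc (-0.83 ± 0.18), Aldoa (-0.54 ± 0.14), Gpi (-0.53 ± 0.12), Pfkm (-0.52 ± 0.14), Eno1 (-0.46 ± 0.10) and Tpi1 (-0.33 ± 0.09), all enzymes of the path between glucose phosphate and pyruvate, with adjusted p from 0.0104 to 0.0444. Eno1, enolase, read 11.45 to 11.82 (median 11.78) in the 4-week livers and 11.88 to 12.38 (median 12.15) in the 1-week livers, without overlap. It and the others missed the threshold run-blocked (adjusted p from 0.14 to 0.38). The other genes of this list were not called.

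Of 39 genes of coagulation and complement 3 rose and none fell (median 0.14, 31 positive), and of 38 acute phase genes 2 fell (median 0.07). The complement proteases C1s (0.78 ± 0.20, adjusted p = 0.0295) and C1r (0.44 ± 0.11, adjusted p = 0.0309) and the regulator Cfi (0.27 ± 0.07, adjusted p = 0.0415) rose by amounts whose calls were lost in 7, 7 and 8 of the 12 fits without 1 animal, and run-blocked (adjusted p = 0.18, 0.23 and 0.32). A2m, a protease inhibitor that is high in the fetal and inflamed rat liver, read 7.64 to 8.53 (median 8.02) in the 4-week livers and 8.43 to 11.71 (median 10.49) in the 1-week livers. The lowest 1-week liver, animal 53, lay inside the 4-week range, and A2m fell by 2.35 (SE 0.38, adjusted p = 0.000738, run-blocked 0.047). Serpina7, the thyroxine-binding globulin, read 5.77 to 8.11 (median 6.72) at 4 weeks and 7.43 to 9.06 (median 8.84) at 1 week, and fell by 1.78 (SE 0.32, adjusted p = 0.00235, run-blocked 0.21). With Gpd2 it made 2 falls among 14 genes of thyroid hormone handling. In antigen presentation 2 of 24 rose, the peptide transporter Tap2 (0.46 ± 0.12, adjusted p = 0.0376) and the class I light chain B2m (0.22 ± 0.06, adjusted p = 0.0456), both lost in 8 or more of the 12 fits without 1 animal and run-blocked (adjusted p = 0.33 and 0.4). Without animal 53 Tap2 alone was called. None of 39 interferon genes was called. Hamp, the iron hormone hepcidin, differed by 0.62 ± 0.29 (adjusted p = 0.283), and none of 29 genes of iron and haem was called, though Hjv and Urod were called lower without animal 53.

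Of 56 measured ribosomal protein genes 52 had a negative difference with a median of -0.17 (range -0.33 to 0.14). An unadjusted p below 0.05 was found for 28 of them, and for 2819 of all 17245 genes. Rpl3 (-0.32 ± 0.09), Rps15 (-0.28 ± 0.08) and Rpl11 (-0.27 ± 0.07) were called lower (adjusted p = 0.0415, 0.0418 and 0.0447), calls that were lost after quantile normalization, with array medians centred, run-blocked (adjusted p = 0.33, 0.24 and 0.27), and in 7, 8 and 9 of the 12 fits without 1 animal. The list median was -0.11 with array medians centred. Rplp0, a ribosomal stalk protein often used as a reference gene, differed by -0.16 ± 0.06 (adjusted p = 0.151). Of 33 genes of the nucleolus 1 fell, the RNA polymerase subunit Polr1c (-0.33 ± 0.08, adjusted p = 0.0166, run-blocked 0.17, lost without animal 72). Of 26 heat shock genes 2 fell, the paired mitochondrial chaperonins Hspd1 (-0.55 ± 0.11, adjusted p = 0.00767) and Hspe1 (-0.42 ± 0.10, adjusted p = 0.0153), both with overlap and neither past the threshold run-blocked (adjusted p = 0.13 and 0.32). None of the genes of the proteasome (31), complex I (33), complexes II to V (24) or the chaperones of the endoplasmic reticulum (28) was called. Without animal 53, 3 complex I genes (Ndufa9, Ndufs4 and Ndufs8) and 2 of complexes II to V (Uqcrh and Cyc1) were called lower. Clpp, a mitochondrial protease (-0.50 ± 0.07, adjusted p = 9.85e-05, run-blocked 0.02), and Vdac2, a pore of the outer mitochondrial membrane (-0.54 ± 0.09, adjusted p = 0.000921, run-blocked 0.086), fell without overlap and were picked after their values were seen.

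**Figure D4:**
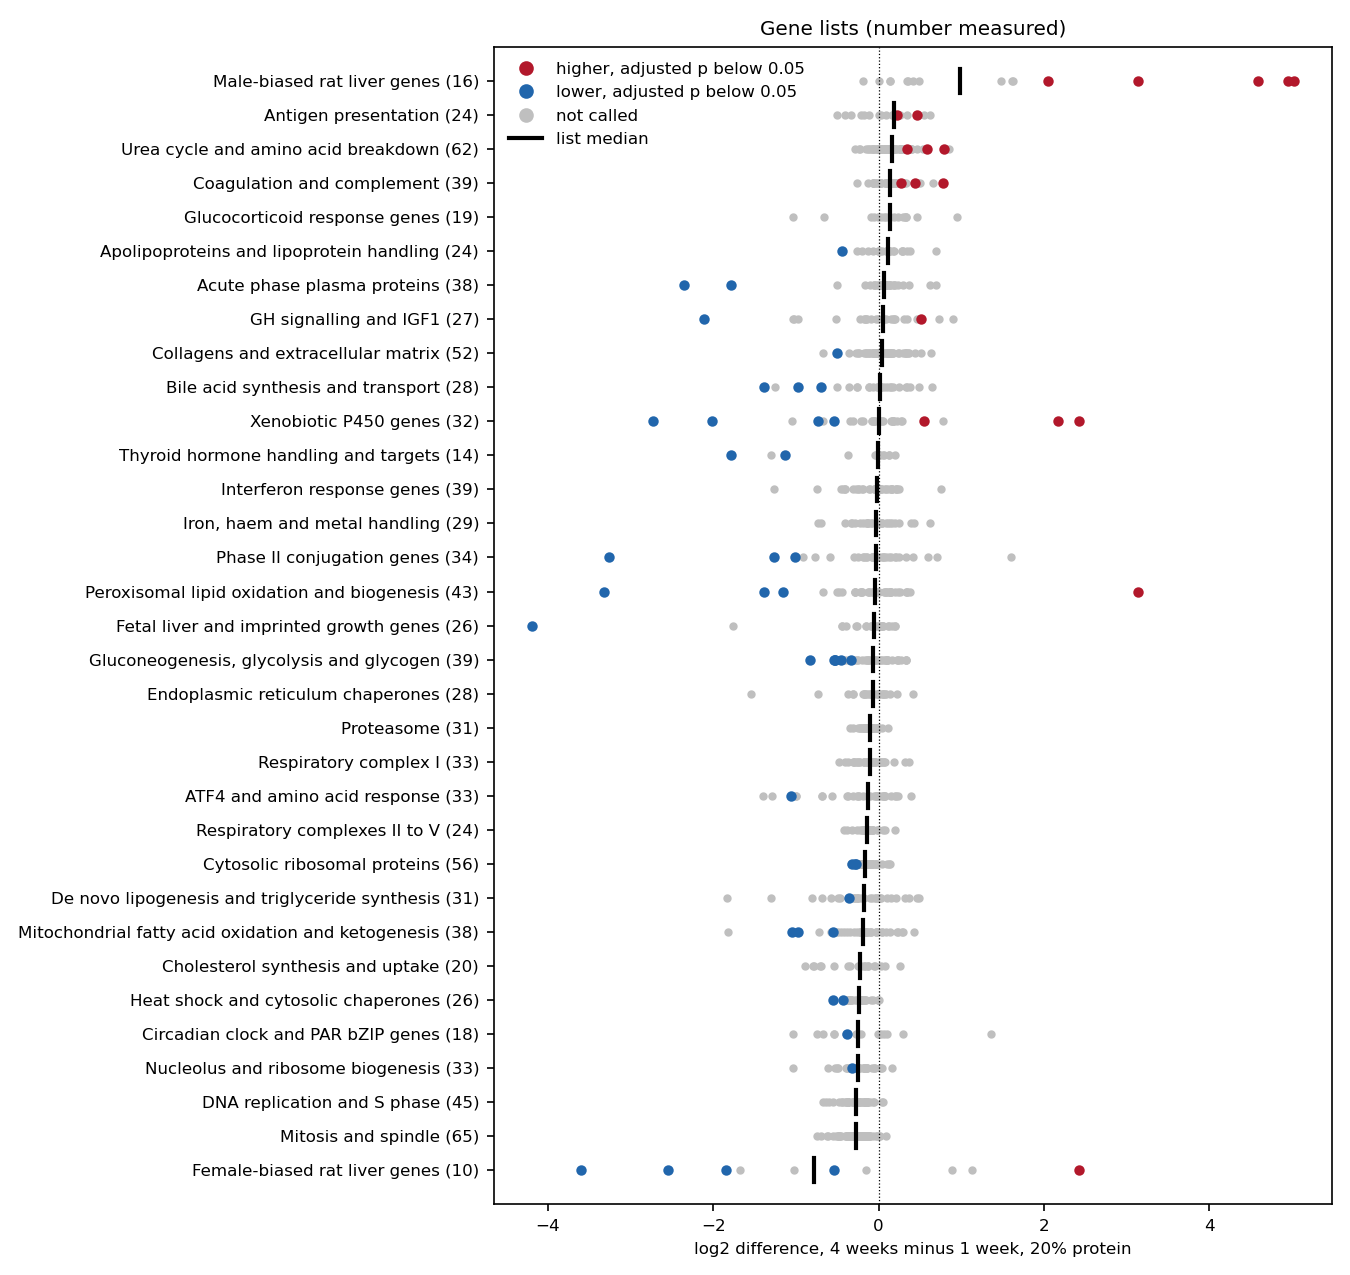
Log2 difference, 4 weeks minus 1 week on 20% protein, for each measured member of 33 gene lists (n = 6 animals each), with called members in colour and the list median as a bar. The male-biased list has the highest median (0.98) and the female-biased list the lowest (-0.78), while most other medians lie within 0.3 of 0.

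Of 18 measured clock genes 1 was called, the clock kinase Csnk1e (-0.39 ± 0.08, adjusted p = 0.00628, run-blocked 0.23). The list level was 7.51 to 8.67 in the 4-week livers (median 8.03) and 7.88 to 8.61 in the 1-week livers (median 8.25). Dbp, a clock output factor, ranged from 6.39 to 11.58 at 4 weeks and from 8.42 to 11 at 1 week, and Per1 from 5.98 to 8.84 and from 6.44 to 8.58. Such spread within a time limits what can be seen for genes with a daily cycle, of which Cyp7a1 is another, and the hour of sampling was not used here.

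Among the cell type markers, calls were made in the erythroid list, given above, and in the pericentral list. Of 9 hepatocyte markers none was called (median 0.06), and their list level was 12.68 to 12.94 in the 4-week livers and 12.65 to 12.84 in the 1-week livers. Of 14 pericentral markers 2 fell, the Wnt co-receptor Lgr5 (-0.87 ± 0.19, adjusted p = 0.014) and the ammonium channel Rhbg (-0.98 ± 0.21, adjusted p = 0.00872), neither past the threshold run-blocked (adjusted p = 0.18 and 0.2). No marker was called among 12 periportal, 10 cholangiocyte, 13 stellate, 11 endothelial, 15 macrophage, 13 T cell, 11 natural killer, 10 B cell, 13 neutrophil, 6 platelet, 10 acinar, 8 adipocyte or 10 muscle markers. Without animal 53 the periportal marker Hal was called higher, the macrophage marker Cd14 lower and the pericentral list's Slco1b2 higher. The muscle list, relevant to Stac3, read 4.99 to 5.79 in the 4-week livers and 4.90 to 5.14 in the 1-week livers, with 10 of 10 positive differences and a median difference of 0.29. Its level was 5.79 in 4-week animals 30 and 63, where Stac3 read 11.03 and 11.78. In the other 4-week livers the list read 4.99 to 5.20 and Stac3 10.16 to 12.28. Whether muscle tissue bears on the Stac3 rise was not tested. Of 52 matrix genes 1 fell, the basement membrane protein Nid1 (-0.50 ± 0.10, adjusted p = 0.00802, run-blocked 0.18), and the collagens Col1a1 (0.30 ± 0.40) and Col3a1 (0.37 ± 0.21) did not pass (adjusted p = 0.761 and 0.399).

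The rats on 5% protein were used to ask whether these changes differed between the diets. At 4 weeks, animals 22 to 32 were 5 rats on 5% and 2 on 20% protein, and animals 59 to 73 were 1 and 4. Diet and run are thus partly mixed at 4 weeks, and the fit used here has no term for run. The test of the difference between diets called 380 genes with a higher (2.2%) and 611 with a lower (3.54%) difference on 20% protein. Of the 435 genes called on 20% protein it called 190. The signed difference was higher on 20% protein for all 74 of these that rose and lower for all 116 that fell, which for some, such as Rhbg and Rpl11, meant a change in the opposite direction on 5% protein. These genes were chosen by their difference on 20% protein, which is itself a term of this test. The shared sign is therefore largely set by the choice and is not a separate result. For the other 245 no difference between the diets passed. Stac3 differed by 6.54 on 20% and 0.02 ± 0.29 on 5% protein (difference between diets adjusted p = 1.9e-10), and Mup5 by 4.95 and 0.04 ± 0.17 (adjusted p = 2.1e-12). Cyp2c12 differed by -3.59 on 20% and -0.76 on 5% protein (adjusted p = 8e-05), Gsta3 by -3.25 and 0.39 (adjusted p = 6.7e-09), Abcc3 by -1.39 and 1.13 (adjusted p = 1.8e-05), and Nox4 by 3.20 and -0.30 (adjusted p = 0.00011). Other changes were of like size on both diets. Hsd3b5 rose by 5.02 on 20% and 5.18 on 5% protein, Mettl7b by 2.58 and 2.78, Cyp2a2 by 2.05 and 2.34 and Ghr by 0.52 and 0.56, and Cyp17a1 differed by -1.84 and -2.05, with adjusted p of the difference between diets from 0.75 to 0.94. Without animal 53 Hsd3b5 rose by 4.44 and Cyp2a2 by 1.47 on 20% protein, and the difference between diets passed for neither (adjusted p = 0.525 and 0.357). For Cyp2c13 it passed only without animal 53 (-2.80, adjusted p = 0.0126). H19 differed by -4.19 and -2.16 and Igfbp2 by -2.11 and -1.15, and for these no difference between diets passed (adjusted p = 0.22 and 0.19).

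By list, the difference between diets was called for 15 of 62 amino acid breakdown genes, all higher on 20% protein, where the median was 0.16 on 20% and -0.18 on 5% protein. It was called for 22 of 56 ribosomal protein genes, all lower on 20% protein (median -0.17 and, on 5% protein, 0.15). For coagulation and complement 8 of 39 were called higher on 20% protein (0.14 and -0.26), and of 24 apolipoprotein genes 8 were called higher and 1 lower (0.11 and -0.26). Of the ATF4 targets 9 of 33 were called lower on 20% protein (-0.12 and 0.45). The counts of this test were sensitive to single animals, and fell to 219 higher and 360 lower without 4-week animal 32 on 5% protein. The lower animal numbers alone gave 208 and 408 calls. The higher numbers gave 18 and 26, and hold a single rat on 5% protein at 4 weeks, so these counts cannot be compared.

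**Figure D5:**
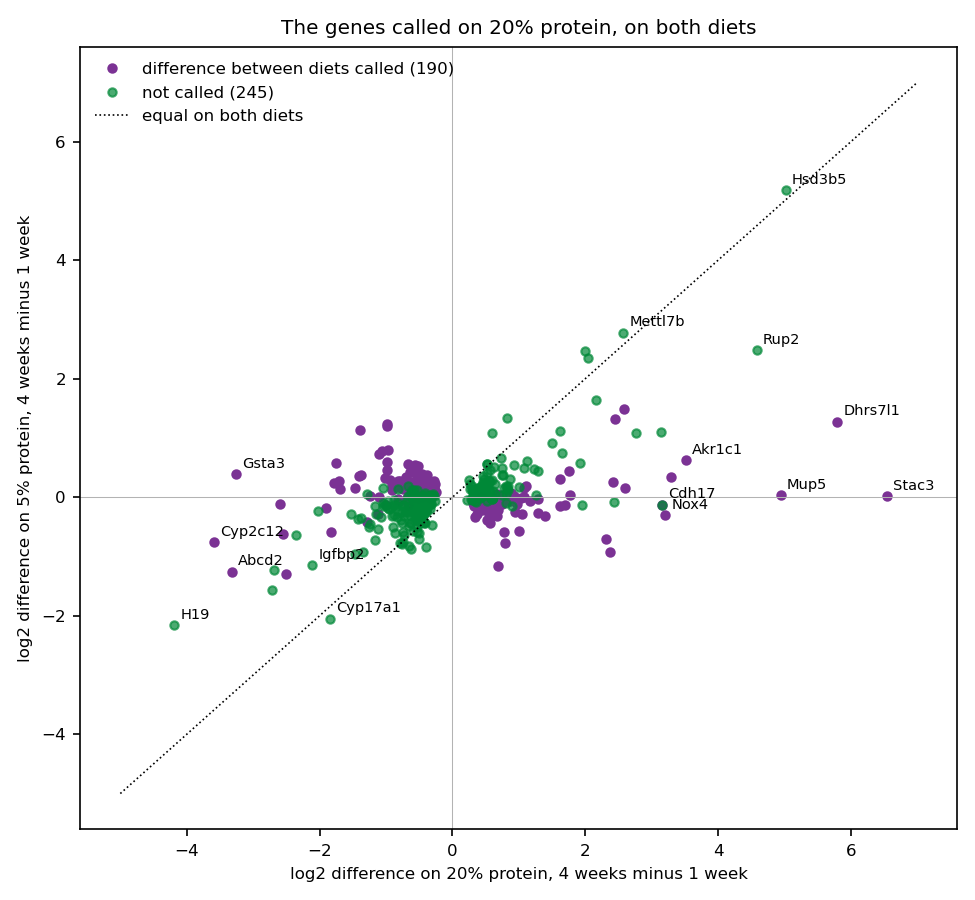
Each of the 435 genes called on 20% protein, with its log2 difference (4 weeks minus 1 week) on 20% protein on the horizontal axis and on 5% protein on the vertical axis (n = 6 animals per group). Purple points (190) passed the test of the difference between diets; Stac3 and Mup5 lie near 0 on 5% protein, and Hsd3b5 and Mettl7b near the line of equality.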

How the data were processed

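RNA of 24 rat livers was measured on 1 Affymetrix array each. The values deposited by the authors are probe set intensity values on a linear scale, summarised with RMA per the submitters' processing notes, and the version is not given in the sources used here. Log2 of the deposited intensity was taken with no further scaling. Of 29214 probe sets 18644 carried 1 gene symbol, 962 several and 9608 none. For each gene with 1 symbol the probe set with the highest mean log2 was kept (17245 genes), and 17108 matched the RefSeq table.

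The 4 groups were fitted as means over all 24 arrays (20 residual degrees of freedom) with limma 3.58.1 in R 4.3.3, and the difference of 4 weeks minus 1 week on 20% protein and its difference from that on 5% protein were tested two-sided. P-values were adjusted by the Benjamini-Hochberg method over all genes, with calls at an adjusted p below 0.05. The script was tested on simulated data. Named genes are a fixed list of 60 (55 measured), the 15 largest changes per direction without overlap, up to 4 called per list and direction, and 6 per direction for the difference between diets. Genes said to be picked after their values were seen lie outside this rule. Members and lists were chosen with earlier results of these data known. Alternatives covered scaling, an offset, the choice of probe set, weights, well position, run, and leaving out each animal. The number of arrays limits the precision. No detection call was used, so low levels have no known bound. Where nothing says otherwise, an array is taken as 1 animal.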

Additional observations from a re-analysis of the deposited data

Results flagged for a closer look

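For 268 pairs of a named gene and a time, the 6 livers were tested for a single animal apart from the rest (gap over range above Dixon's critical value for 6 samples). Of these 22 gave one. Chance gives about 1 in 20 of independent tests, but these share the same livers and many genes were picked from these data. The count therefore cannot be set against chance. Animal 53 was that liver at 1 week for H19 (0.643), Cyp2c11 (0.926), Cyp2c13 (0.855), Cyp2a2 (0.851), Car3 (0.788), Hsd11b1 (0.923), Cyp8b1 (0.71), Scd (0.716), Cux2 (0.826), Hao2 (0.855), Akr1c12 (0.636), Gfra3 (0.645), Cyp17a1 (0.749) and Zbtb20 (0.66). The other 1-week livers were animal 77 for Gpc3 (0.687) and Stac3 (0.729) and animal 78 for Esr1 (0.652). At 4 weeks they were animal 29 for Cyp2c11 (0.685), Scd (0.647) and Dhrs7l1 (0.749), animal 30 for Col3a1 (0.632) and animal 63 for Crat (0.7).

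The difference between 4 weeks and 1 week was itself different on 20% and on 5% protein (limma, adjusted p below 0.05) for 52 named genes, given here as the difference on 20% minus that on 5% protein in log2 units. Higher values on 20% protein were found for Stac3 (6.52), Mup5 (4.91), Dhrs7l1 (4.52), Nox4 (3.5), Lrtm2 (3.29), Cdh17 (3.28), Sult1c2al1 (2.95), Akr1c1 (2.89), Elapor1 (2.45), Cyp3a9 (2.17), Esr1 (1.76), Ncam2 (1.73), Amdhd1 (1.56), C1s (1.36), AKR1C3l1 (1.14), Akr1c2 (1.11), Cyp2d4 (0.96), Egfr (0.93), Dmgdh (0.73) and C1r (0.59).

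Lower values on 20% protein were found for Gsta3 (-3.64), Cyp2c12 (-2.84), Abcc3 (-2.52), Aqp7 (-2.48), Gpat3 (-2.32), Rhbg (-2.22), Abcd2 (-2.07), Serpina7 (-2.03), Qpct (-1.99), Trib3 (-1.96), Tox (-1.92), Slc7a5 (-1.85), Acot2 (-1.78), Crat (-1.77), Gfra3 (-1.72), Abcb1a (-1.58), Gstm5 (-1.33), Qsox1 (-1.23), Slc39a5 (-1.21) and Cbr1 (-1.11). Smaller ones were those of Gpd2 (-0.84), Hspd1 (-0.81), Csnk1e (-0.77), Hadhb (-0.66), Clpp (-0.56), Rpl11 (-0.55), Vdac2 (-0.54), Rpl3 (-0.47), Polr1c (-0.44), Dgat1 (-0.43), Rps15 (-0.42) and Rplp0 (-0.4).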

How the results depend on the processing

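The counts of genes called on 20% protein (176 higher, 259 lower) and by the difference between diets (380 higher, 611 lower) stayed within 1.5 times under quantile normalization, an offset of 16, the mean over probe sets, every probe set tested, the dimmest genes dropped, a trended and robust eBayes step, and the well column as a covariate. With array medians centred 341 genes were higher. With array weights 421 were lower, and the difference between diets gave 588 and 952. From the 12 arrays of 20% protein alone 117 were higher. A random block for the well row left 81 higher and, rounded, 1.2e2 lower. Animals 22 to 54 alone gave 19 and 27 (208 higher for the difference between diets) and animals 59 to 79 alone 279 and 541 (18 and 26). The 12 arrays with run as a random block gave 41 and 43. Leaving out run 2 gave 484 lower, run 4 gave 293 and 695, run 1 gave 317 and 484, and run 3 gave 24 and 17. Leaving out 1 animal gave 113 to 229 higher and 151 to 338 lower, and for the difference between diets 219 to 519 higher and 360 to 890 lower. Of 88 named genes with a call, 20 kept it in every setting, 58 in every setting that used all 12 arrays and no term or subset by run, and 87 kept 1 direction. The exception was Ahsp, with 0.06079 among animals 22 to 54. The cause of these changes was not tested. No paired analysis was possible because no animal number occurs in more than 1 group.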

Other observations

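Of 65 measured mitochondrial ribosomal protein genes with symbols that begin with Mrpl or Mrps, 7 fell and none rose, with a median of -0.21. They were counted after their values were seen. The genes annotated in lower case as mrpl11 and mrpl24 were also called (limma, adjusted p = 0.0463 and 0.0321) but lie outside this count. The 7 were Mrpl12, Mrpl38, Mrpl58, Mrps18b, Mrps27, Mrps30 and Mrps34. Of 15 aldehyde dehydrogenase genes Aldh1a1, Aldh2 and Aldh5a1 were called, 2 higher and 1 lower, and of 340 solute carrier genes 4 were called higher and 7 lower. Over all genes tested 1.02% were called higher and 1.5% lower, and no family was tested against these shares. None of 145 vomeronasal receptor genes was called in the limma fit.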
